A study of Mus musculus with 16 samples.

Results

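The 9 chemokine genes described here and Ackr2, the gene of a scavenger receptor for chemokines, were followed in whole dorsal skin of female mice. The 10 genes are Cxcl13, Cxcl1, Cxcl12, Cxcl14, Cxcl16, Ccl2, Ccl7, Ccl8, Ccl27a and Ackr2. All 10 of them have a probe set annotated to them alone, 19 probe sets in all, and 9 of the 10 are among the 12087 genes tested. For each gene the probe set was chosen by its mean over all 16 arrays, the highest being taken, so that mean is a description of the choice and not a result. The closest choice was for Cxcl1, with means of 3.79 for the probe set used and 3.75 for the next.

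The labels describe skin biopsies from C57/B6 females (their titles write C57/B7) taken at day 0, at 8.5 weeks of age and before treatment, from 9 mice. The back was then treated topically each day for 4 days with the vehicle DMSO, with ruxolitinib or with tofacitinib, and a second biopsy came from the treated skin at day 5 when the mice were killed. Both drugs are inhibitors of Janus kinases, the enzymes that pass many cytokine signals to STAT transcription factors. No dose is stated in the labels. Day-5 arrays exist in this set for 2 DMSO mice (mice 2 and 3), 2 ruxolitinib mice (mice 4 and 6) and 3 tofacitinib mice (mice 7, 8 and 9), while mice 1 and 5 have only their day-0 array. Every day-5 biopsy thus came from a mouse that had already been biopsied, and no group at day 5 was left without a topical agent. For mouse 7 at day 5 the labels disagree, since the description says ruxolitinib and the title and the treatment field say tofacitinib. The array was kept with tofacitinib, and its main differences are also given without it.

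Chemokines are small secreted proteins that guide the movement of leukocytes by binding receptors coupled to G proteins. CXCL13 attracts B cells through CXCR5, CXCL1 attracts neutrophils through CXCR2, the CC chemokines CCL2, CCL7 and CCL8 attract monocytes and other cells, and CCL27 made by keratinocytes attracts skin-homing T cells through CCR10. Atypical receptors such as ACKR2 bind chemokines without the usual signalling and remove them, and ACKR2, which takes up inflammatory CC chemokines, is known from the skin and from lymphatic endothelium.

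Promoters of 3 genes that differed between the days in all 3 arms are shown, those of Cxcl13 and Cxcl1, which rose, and of Ackr2, which fell. Cxcl14 differed as well, but its window overlaps its own annotated gene and is not printed. They are the 250 bases before the annotated start, from RefSeq, build GRCm38.p6, all on the plus strand: Cxcl13 at chr5:95956689-95956938, Cxcl1 at chr5:90890995-90891244 and Ackr2 at chr9:121898105-121898354. Capitals mark the motifs found.
Cxcl13: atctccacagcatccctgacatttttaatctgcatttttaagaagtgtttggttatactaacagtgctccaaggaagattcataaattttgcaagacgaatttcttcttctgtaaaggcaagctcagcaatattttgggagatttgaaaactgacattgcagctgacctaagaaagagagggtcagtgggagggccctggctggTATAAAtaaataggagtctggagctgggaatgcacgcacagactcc
Cxcl1: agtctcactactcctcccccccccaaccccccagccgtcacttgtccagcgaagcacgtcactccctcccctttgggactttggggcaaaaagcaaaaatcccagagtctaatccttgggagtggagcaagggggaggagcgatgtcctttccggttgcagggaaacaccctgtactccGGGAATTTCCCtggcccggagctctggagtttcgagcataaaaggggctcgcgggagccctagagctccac
Ackr2: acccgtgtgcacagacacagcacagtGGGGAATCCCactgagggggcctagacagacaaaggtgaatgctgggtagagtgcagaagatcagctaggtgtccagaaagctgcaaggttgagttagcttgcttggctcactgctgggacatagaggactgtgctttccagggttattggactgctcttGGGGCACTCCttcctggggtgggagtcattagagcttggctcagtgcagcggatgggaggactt

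Promoter windows were found for 7 of the 10 genes. Both strands were searched for the STAT motif TTCNNNGAA, the AP-1 motif TGANTCA, the TATA motif TATAAA and the NF-kB motif. Of 32817 windows of 250 bases, 7.01% held the STAT motif, 6.75% the AP-1 motif, 12.4% the TATA motif and 3.9% the NF-kB motif. Cxcl13 has the TATA motif 46 to 41 bases before its start. Cxcl1 has an NF-kB match on each strand, overlapping each other, 71 to 61 bases before its start. Ackr2 has NF-kB matches 224 to 215 and 64 to 55 bases before its start. In the windows of the other genes, a STAT match lies 191 to 183 bases before the start of Cxcl14 and a TATA match 32 to 27 bases before that of Ccl8. An AP-1 match lies 77 to 71 bases before an annotated start of Ccl27a. Ccl27a has further windows without a match, and all of its windows overlap its own annotated gene. A match is a description of the letters and not a binding site.

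Expression was measured as log2 values on the probe sets of single-colour arrays, deposited after background correction and normalization. Array medians lay between 3.75 and 3.94. The 27 control probe sets for bacterial sequences, which have no target in mouse RNA, reached at most 2.43 on any array (median 1.70), and a level at or under 2.43 is called background here. Probe sets have different affinities, so levels of different genes are not set against each other. Krt14, a keratin of basal keratinocytes, and Sbsn, a suprabasal gene, headed their marker lists with means of 12.99 and 13.26, and all 10 measured markers of each list were above background in at least 1 array. Differences are log2 values with their standard errors from 1 limma fit of all 16 arrays, and a gene passed at an adjusted p under 0.05 over the 12087 genes. The labels number the mice, so a p-value reflects a spread between mice. That spread was pooled over all groups, the 9 day-0 arrays included. It is not the spread of the 2 or 3 mice of the day-5 group compared. The 3 day-5 groups were compared with the same 9 day-0 arrays, so these 3 comparisons are not independent of each other.

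Of the 9 genes tested, 4 passed between DMSO at day 5 and day 0, where 51.1% of all genes tested passed. With ruxolitinib 4 of 9 passed against 34.0% of all genes, and with tofacitinib 6 of 9 against 50.1%. Over all 12087 genes, 2685, 1512 and 2742 passed higher and 3493, 2592 and 3313 lower with DMSO, ruxolitinib and tofacitinib. The counts of markers given below are to be read beside these. With mouse as a fixed block 4, 4 and 5 of the 9 passed in these arms, and over all genes the count moved from 6178 to 3701 with DMSO and from 4104 to 1324 with ruxolitinib. Cxcl13 and Cxcl1 rose and Cxcl14 and Ackr2 fell in all 3 arms, and Cxcl16 and Ccl2 also fell with tofacitinib. The median difference of the 9 genes was -0.05, -0.25 and -0.53 in the DMSO, ruxolitinib and tofacitinib arms, beside -0.05, -0.03 and -0.02 over all genes. Cxcl13 and Cxcl1 exceeded the filter of log2 4 in no day-0 array, and Ccl2 exceeded it in 2 day-0 arrays and in no day-5 array, so these 3 entered the test through the days in which they were high. Ccl7 exceeded it in 1 array and was not tested. Since the genes were chosen with such results known, and so large a share of all genes passed, these counts are read as a description.

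**Figure D1:**
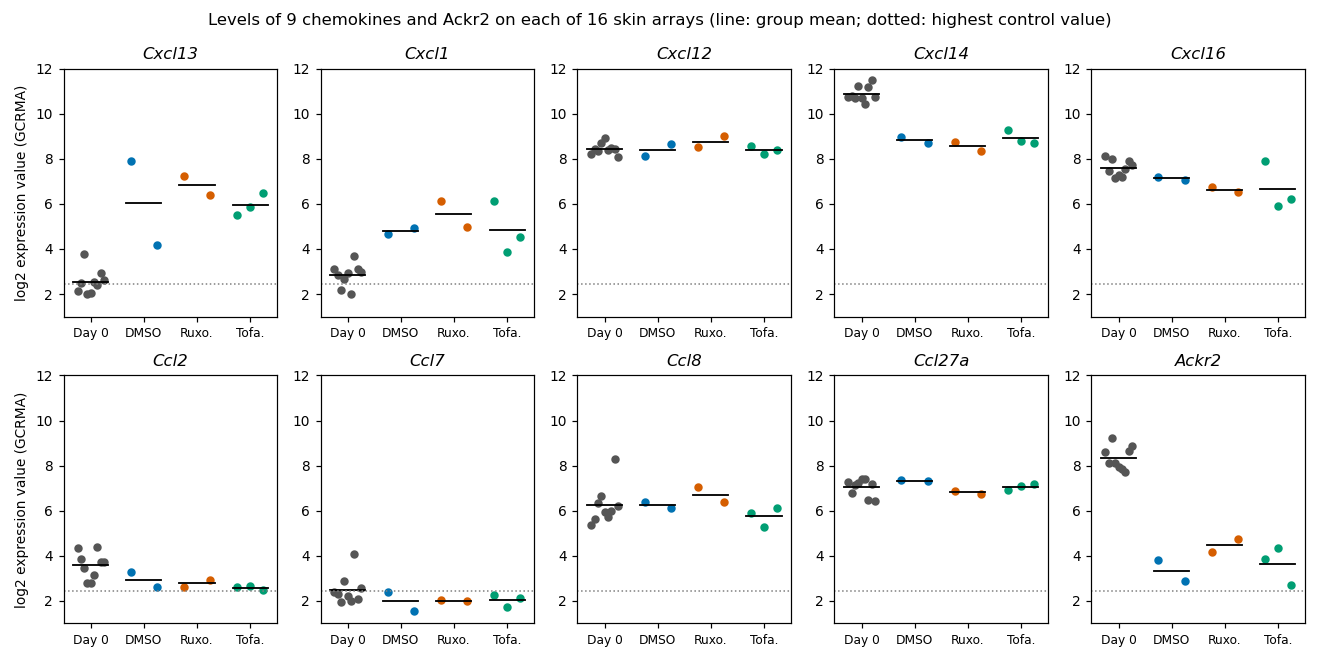
Log2 expression value of each gene (vertical axis) on each of the 16 arrays (points) at day 0 and, at day 5, in DMSO, ruxolitinib (Ruxo.) and tofacitinib (Tofa.) skin. Black lines are group means and the dotted line at 2.43 is the highest control value. The day-5 arrays lie above all day-0 arrays for Cxcl13 and Cxcl1 and below all of them for Cxcl14 and Ackr2.

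Cxcl13, on chr5:95956939-95961068 in GRCm38.p6, encodes the chemokine that draws B cells. At day 0 its level was 2.01 at the lowest, 2.50 at the median and 3.77 at the highest of 9 arrays, 4 of them at background. At day 5 it was 7.88 and 4.18 in the DMSO mice 2 and 3, 7.23 and 6.40 in the ruxolitinib mice 4 and 6, and 5.50, 5.87 and 6.47 in the tofacitinib mice 7, 8 and 9. All 7 day-5 arrays were above all 9 day-0 arrays, and the DMSO mice spanned the whole range of the day-5 arrays. The differences from day 0 were 3.43 ± 0.65 with DMSO (limma adjusted p = 0.000742), 4.29 ± 0.65 with ruxolitinib (0.00024) and 3.39 ± 0.55 with tofacitinib (0.000245). With day-0 arrays at background, these sizes are not firm. Mouse 3 had the highest day-0 level and changed by 0.41, whereas the other 6 mice changed by 2.92 to 5.39. Without mouse 7 the tofacitinib difference was 3.60 (0.000841). Without DMSO mouse 2 the vehicle difference was 1.51 (adjusted p = 0.0409) and without DMSO mouse 3 it was 5.34, and with mouse as a fixed block it was 2.90 and no longer passed (adjusted p = 0.0657, the highest of 25 alternatives, of which the lowest was 4.77e-05). The other probe set of Cxcl13 rose less, by a mean of 2.10, 1.94 and 1.93 in the 3 arms.

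Several markers of B cells were at background throughout. Of 7 measured B cell markers, Ms4a1, Pax5, Blk and Cr2 were at background on all 16 arrays, and Ighm had the highest mean of the list at 6.47. The summed level of the list, on a log2 scale, was 5.82 to 7.31 at day 0, 6.76 to 6.96 with DMSO, 6.83 to 7.52 with ruxolitinib and 7.06 to 8.34 with tofacitinib, so the days overlapped. Of the list 1 marker was tested, and it passed higher with tofacitinib, at 1.22, and did not pass with DMSO (0.40) or ruxolitinib (0.71). Its part in the Cxcl13 difference was not tested. Cxcr5, the receptor of CXCL13, was at background on all 16 arrays, between 1.46 and 1.89.

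Cxcl1, on chr5:90891245-90893121, encodes the neutrophil attractant. Its day-0 level was 2.01 at the lowest, 2.93 at the median and 3.69 at the highest, with 2 of 9 arrays at background. It reached 4.64 and 4.92 with DMSO, 6.12 and 4.96 with ruxolitinib and 6.11, 3.88 and 4.53 with tofacitinib. Again no day-5 array overlapped the day-0 arrays, with ruxolitinib mouse 4 and tofacitinib mouse 7 the highest and tofacitinib mouse 8 the lowest of the day-5 arrays. The differences were 1.98 ± 0.46 with DMSO (adjusted p = 0.00293), 2.76 ± 0.46 with ruxolitinib (0.000482) and 1.96 ± 0.39 with tofacitinib (0.00106), and without mouse 7 the last was 1.35 (0.00844). As some day-0 levels were at background, these sizes are not firm. All 7 mice rose from their own day-0 level, by 0.77 to 3.47. The other 2 probe sets rose as well, by 1.44, 2.42 and 1.51 and by 1.79, 2.94 and 1.68 in the DMSO, ruxolitinib and tofacitinib arms.

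Cxcr2, the receptor of CXCL1, was at background on all 16 arrays, as were 3 further markers of neutrophils, Csf3r, Mpo and Elane, among the 8 measured. S100a9 had the highest mean of that list, at 5.49. The summed neutrophil level was 5.85 to 7.33 at day 0, 5.73 to 6.10 with DMSO, 6.87 to 7.07 with ruxolitinib and 6.66 to 7.92 with tofacitinib, so the days overlapped. Of the 2 markers tested, 1 passed higher with tofacitinib and 0 with DMSO or ruxolitinib. Their part in the Cxcl1 difference was not tested.

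Cxcl14, on chr13:56288643-56296811, encodes a chemokine that healthy epidermis makes without stimulation. At day 0 its level was 10.42 at the lowest, 10.75 at the median and 11.51 at the highest. At day 5 it was 8.98 and 8.69 with DMSO, 8.75 and 8.36 with ruxolitinib and 9.28, 8.77 and 8.68 with tofacitinib. The highest day-5 array, tofacitinib mouse 7, was below the lowest day-0 array. The differences were -2.04 ± 0.24 with DMSO (adjusted p = 1.47e-05), -2.33 ± 0.24 with ruxolitinib (1.15e-05) and -2.01 ± 0.20 with tofacitinib (4.06e-06). Without mouse 7 the last was -2.19 (1.11e-05). The change within mice was the most even of the 4 genes that passed in all arms, from -2.74 to -1.79 in 7 of 7 mice. The other probe set fell further, by 3.39, 3.68 and 3.40.

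Basal keratinocyte markers fell over the same days: 10 of 10 passed lower in each arm, and their summed level went from 15.54 to 15.85 at day 0 to 14.77 to 14.81 with DMSO, 14.80 to 15.20 with ruxolitinib and 14.87 to 15.04 with tofacitinib. Over all 12087 genes 3493, 2592 and 3313 passed lower in these arms. The summed suprabasal level was 15.48 to 15.84 at day 0, 14.97 to 15.18 with DMSO, wholly below day 0, 15.44 to 15.55 with ruxolitinib and 15.38 to 15.71 with tofacitinib. Of 10 suprabasal markers 6, 0 and 3 passed lower and 0, 1 and 1 higher in these arms. The part of both lists in the Cxcl14 difference was not tested. In whole skin, fewer cells of a type and less RNA per cell cannot be told apart.

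Cxcl16, on chr11:70454389-70459984, encodes a membrane-bound chemokine and the ligand of CXCR6. Its day-0 level was 7.14 at the lowest, 7.55 at the median and 8.12 at the highest. It was 7.20 and 7.06 with DMSO, 6.76 and 6.51 with ruxolitinib and 7.88, 5.90 and 6.21 with tofacitinib. Tofacitinib mouse 7 lay within the day-0 range while mice 8 and 9 had the lowest levels of all arrays. The differences were -0.47 ± 0.38 with DMSO (adjusted p = 0.314), -0.91 ± 0.38 with ruxolitinib (0.0748) and -0.94 ± 0.32 with tofacitinib (0.0253). The tofacitinib difference was -1.55 (0.000199) without mouse 7, did not pass without mouse 8 (-0.54, 0.210) or without mouse 9 (-0.71, 0.152), and did not pass with mouse as a fixed block (-1.055, 0.0814). The ruxolitinib difference passed in the other probe set (-1.31, adjusted p = 0.0177), without tofacitinib mouse 7 (-0.91, 0.00916) and when fitted on its own arrays alone (-1.03, 0.0104). Over 25 alternatives the adjusted p ran from 0.000199 to 0.21 with tofacitinib and from 0.00916 to 0.538 with ruxolitinib. Within mice Cxcl16 was lower in 6 of 7.

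Cxcl12, on chr6:117168535-117181368, encodes the stromal ligand of CXCR4 and ACKR3 and did not pass in any arm. Its day-0 arrays ran from 8.10 over a median of 8.45 to 8.93, and the day-5 arrays from 8.11 to 8.99, so the days overlapped throughout. The differences were -0.05 with DMSO (95% interval -0.48 to 0.38), 0.30 with ruxolitinib (-0.14 to 0.73) and -0.05 with tofacitinib (-0.41 to 0.32). Within mice it was higher in 4 and lower in 3. A second probe set gave mean differences of 0.12, -0.48 and -0.25, and the remaining one was at background on all 16 arrays.

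Ccl2, Ccl7 and Ccl8 lie near each other on chromosome 11, at chr11:82035577-82037452, chr11:82045712-82047525 and chr11:82115185-82116799, and encode monocyte attractants. For Ccl2 the day-0 level was 2.77 at the lowest, 3.72 at the median and 4.41 at the highest. It was 3.28 and 2.61 with DMSO, 2.64 and 2.91 with ruxolitinib and 2.62, 2.66 and 2.50 with tofacitinib, all close to background, and the days overlapped through the DMSO and ruxolitinib arrays. All 7 mice fell from their own day-0 level, by -1.80 to -0.17. The differences were -0.64 ± 0.36 with DMSO (adjusted p = 0.143), -0.75 ± 0.36 with ruxolitinib (0.115) and -1.03 ± 0.30 with tofacitinib (0.0118). The tofacitinib difference was -1.01 (0.0354) without mouse 7 and did not pass without mouse 9 (-0.99, 0.051), and the DMSO difference passed with mouse as a fixed block (-0.70, 0.0497). Over 23 alternatives the adjusted p ran from 0.00353 to 0.051 with tofacitinib and from 0.0497 to 0.623 with DMSO.

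Ccl7 was at background on 13 of 16 arrays. Its day-0 levels ran from 1.94 over a median of 2.32 to 4.10 in mouse 7, and its day-5 levels from 1.54 to 2.41. Ccl8 was 5.35 at the lowest, 6.01 at the median and 8.30, in mouse 8, at the highest of the day-0 arrays. At day 5 it was 6.40 and 6.13 with DMSO, 7.06 and 6.37 with ruxolitinib and 5.90, 5.26 and 6.14 with tofacitinib, within the day-0 range except for tofacitinib mouse 8. Its differences of 0.05 ± 0.53, 0.48 ± 0.53 and -0.53 ± 0.45 did not pass (adjusted p = 0.948, 0.497 and 0.335). Macrophage markers were higher on the same day-5 arrays: 6, 5 and 5 of 9 tested passed higher with DMSO, ruxolitinib and tofacitinib, and the summed level of the 11 measured, headed by C1qb, was 10.48 to 11.95 at day 0 and 12.09 to 12.48 over the day-5 arrays, with Marco at background throughout. Over all 12087 genes 2685, 1512 and 2742 passed higher in these arms.

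Ccl27a, on chr4:41769467-41774225, encodes the keratinocyte chemokine that binds CCR10. In its own probe set, whose suffix x marks probes that can match other sequences, the day-0 level was 6.43 at the lowest, 7.17 at the median and 7.41 at the highest. It was 7.36 and 7.30 with DMSO, 6.89 and 6.73 with ruxolitinib and 6.90, 7.08 and 7.19 with tofacitinib, so day 5 overlapped day 0 while both DMSO arrays were above the 5 inhibitor arrays. The differences from day 0 of 0.30 ± 0.23, -0.25 ± 0.23 and 0.05 ± 0.20 did not pass (adjusted p = 0.29, 0.417 and 0.833). A probe set annotated to Ccl27a, Ccl27b and 3 further genes together read differently: its 9 day-0 arrays lay between 12.02 and 12.69, and at day 5 it was 9.98 to 10.36 with DMSO, 9.51 to 9.66 with ruxolitinib and 9.25 to 10.41 with tofacitinib, with no overlap between the days. It was lower in all 7 mice, by -3.44 to -1.61. A further probe set shared by the same number of genes lay at 6.80 to 7.69 at day 0 and 6.97 to 7.81 at day 5. The direction for Ccl27a is therefore uncertain, and which of the 5 genes each shared probe set reports was not tested.

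Ackr2, on chr9:121898355-121911075, encodes the scavenger receptor. Its day-0 level was 7.72 at the lowest, 8.13 at the median and 9.23 at the highest. At day 5 it was 3.80 and 2.88 with DMSO, 4.18 and 4.75 with ruxolitinib and 3.84, 4.35 and 2.72 with tofacitinib. All 7 day-5 arrays were far below the day-0 arrays, and the 2 ruxolitinib arrays were above both DMSO arrays. The differences were -5.04 ± 0.42 with DMSO (adjusted p = 1.24e-06), -3.85 ± 0.42 with ruxolitinib (2.22e-05) and -4.72 ± 0.36 with tofacitinib (5.36e-07). As fitted, these are 32.9-fold, 14.4-fold and 26.3-fold lower. With day-5 levels down to 2.88 with DMSO and 2.72 with tofacitinib, close to background, these sizes and their order between arms are not firm. Without mouse 7 the tofacitinib difference was -4.85. Within mice the change ran from -6.35 in mouse 3 to -3.11 in mouse 6. The other 2 probe sets of Ackr2 did not pass the filter: a weak one went from a day-0 mean of 3.54 to levels of 1.57 to 2.08 at day 5, and the other, at 2.68 at day 0 and 2.31 to 2.46 at day 5, was near background throughout.

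Of 4 tested markers of lymphatic endothelium, 3, 2 and 3 passed higher with DMSO, ruxolitinib and tofacitinib and 0 lower. The summed level of the 6 measured was headed by Pdpn, with a mean of 9.20. It was 7.88 to 9.79 at day 0 and 9.40 to 9.999 over the day-5 arrays, so the days overlapped. Among all 12087 genes 2685, 1512 and 2742 passed higher in these arms. The basal keratinocyte markers fell, as given above. The part of both lists in the Ackr2 difference was not tested. As a measure of RNA quality, the 3′ minus 5′ difference of Actb was 1.65 to 2.09 at day 0 and 1.64 to 1.95 at day 5. That of Gapdh was 0.825 to 1.47 and 0.779 to 0.985. The days overlapped, while for Gapdh day 0 reached higher than any day-5 array.

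**Figure D2:**
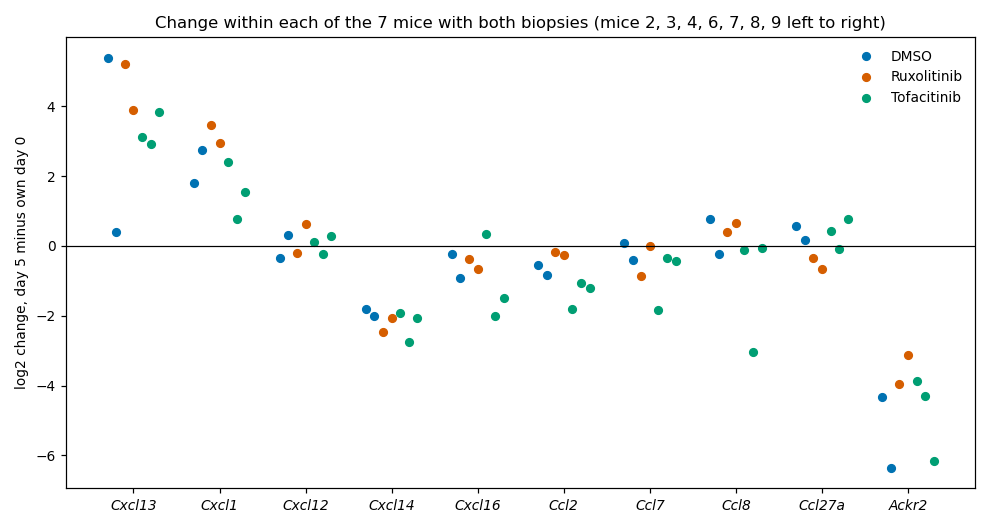
Log2 change from day 0 to day 5 within each of the 7 mice with both arrays (points), by gene, coloured by arm. Cxcl13 and Cxcl1 lie above 0 in 7 of 7 mice, Cxcl14, Ccl2 and Ackr2 below 0 in 7 of 7, and the other genes are mixed.

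In the order of group means, day 0 was lowest for Cxcl13 and Cxcl1 and highest for Cxcl14 and Ackr2, and in these 4 genes its range did not overlap that of the neighbouring day-5 group. Day-5 groups next to each other in that order overlapped for each gene except Ccl27a, where DMSO stood above tofacitinib. For Ackr2 the order was DMSO, tofacitinib, ruxolitinib, day 0, and for Cxcl13 it was day 0, tofacitinib, DMSO, ruxolitinib. How many of all genes had separated days, or the same sign in every mouse, was not counted. With 34.0% to 51.1% of all genes passing between the days, such separation is not read as particular to these genes.

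Whether the inhibitors differed from their vehicle was tested among the day-5 arrays. None of the 9 genes passed between ruxolitinib and DMSO, where 0.521% of all genes passed, none between tofacitinib and DMSO (0.165%), and none between the mean of both inhibitors and DMSO (0.935%). At an unadjusted p under 0.05 the limma fit gave 1 of 9 for ruxolitinib, Ackr2, and 0 for each of the other 2 comparisons. Ackr2 was higher with ruxolitinib than with DMSO by 1.19 ± 0.55 (95% interval 0.02 to 2.36, unadjusted p = 0.0473 and adjusted p = 0.313 in the limma fit). It was 0.68 without DMSO mouse 3 and 1.80 with mouse as a fixed block, the lowest and highest of 24 alternatives, over which the adjusted p ran from 0.205 to 0.703. For tofacitinib the Ackr2 difference was 0.32 (-0.75 to 1.39). For Cxcl13 the intervals were wide, -0.95 to 2.68 with ruxolitinib and -1.69 to 1.62 with tofacitinib, and the Cxcl13 differences from DMSO turned on which DMSO mouse was kept. Without DMSO mouse 2 they were 2.78 with ruxolitinib, 1.87 with tofacitinib and 2.33 for the mean of both, and without DMSO mouse 3 they were -1.05, -1.95 and -1.50. For Cxcl1 they were -0.51 to 2.06 and -1.19 to 1.15, and for Cxcl14 -0.94 to 0.37 and -0.57 to 0.63. Ccl27a was lower than DMSO by -0.55 with ruxolitinib (-1.20 to 0.09) and by -0.25 with tofacitinib (-0.84 to 0.34). Cxcl16 differed from DMSO by -0.47 with tofacitinib (-1.43 to 0.49). Without mouse 7 the tofacitinib minus DMSO differences were -1.08 for Cxcl16, -0.63 for Cxcl1, 0.17 for Cxcl13, -0.15 for Cxcl14 and 0.19 for Ackr2, and none of the 9 passed.

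The 2 inhibitors were compared with each other at the same day but at doses that are not given. None of the 9 genes passed between tofacitinib and ruxolitinib, where 0.0248% of all genes passed, and 0 of 9 had an unadjusted p under 0.05 in the limma fit. The tofacitinib minus ruxolitinib difference was -0.91 for Cxcl13 (95% interval -2.56 to 0.75), -0.79 for Cxcl1 (-1.96 to 0.38), 0.32 for Cxcl14 (-0.28 to 0.91), -1.01 for Ccl8 (-2.35 to 0.33) and -0.87 for Ackr2 (-1.94 to 0.20). It was -0.02 for Cxcl16 (-0.98 to 0.93), -0.28 for Ccl2 (-1.18 to 0.63), -0.34 for Cxcl12 (-0.85 to 0.17) and 0.31 for Ccl27a (-0.28 to 0.90). Intervals of this width do not show that the drugs act alike. Without the array of mouse 7 the Ackr2, Cxcl1 and Cxcl16 differences were -1.001, -1.41 and -0.64 (adjusted p = 0.568, 0.346 and 0.5), those of Cxcl13 and Cxcl14 were -0.70 and 0.13, and none of the 9 passed.

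**Figure D3:**
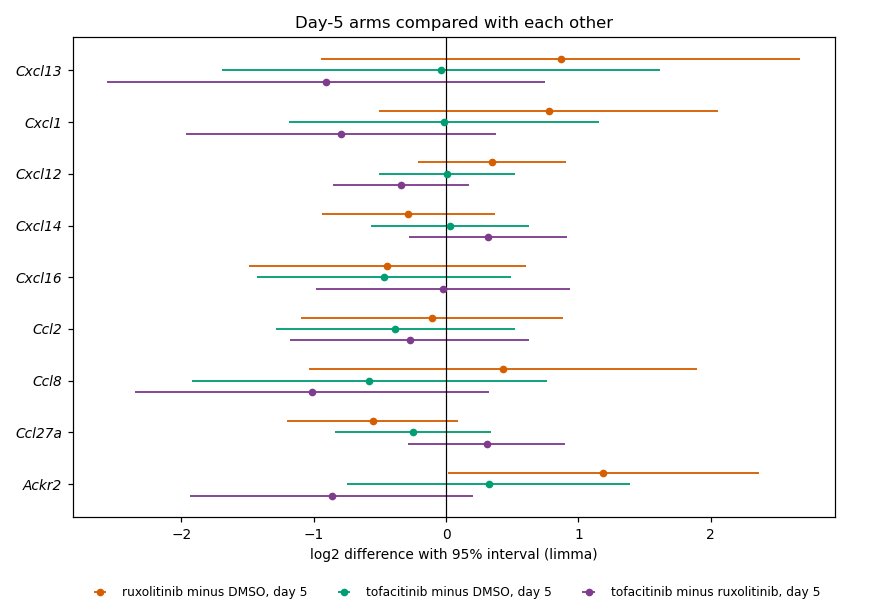
Log2 differences between the day-5 arms (horizontal axis) with 95% intervals from limma, for the 9 tested genes. Every interval includes 0 except that of Ackr2 for ruxolitinib minus DMSO, 0.02 to 2.36, whose adjusted p is 0.313.

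The single-gene probe sets of Cxcl13, Cxcl1, Cxcl14 and Cxcl16 had the same sign as the probe set used in all 3 arms, but the size of the change differed, by over 1 log2 unit for Cxcl13 and Cxcl14 in each arm. Those of Cxcl12 differed in sign. The 3 probe sets of Ackr2 shared a sign but differed most in size. The one used changed by -5.007, -3.885 and -4.709 in the DMSO, ruxolitinib and tofacitinib arms. The weak one changed by -1.699, -1.541 and -1.805 and the one near background by -0.343, -0.2227 and -0.3655. Neither of these 2 passed the filter.

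**Figure D4:**
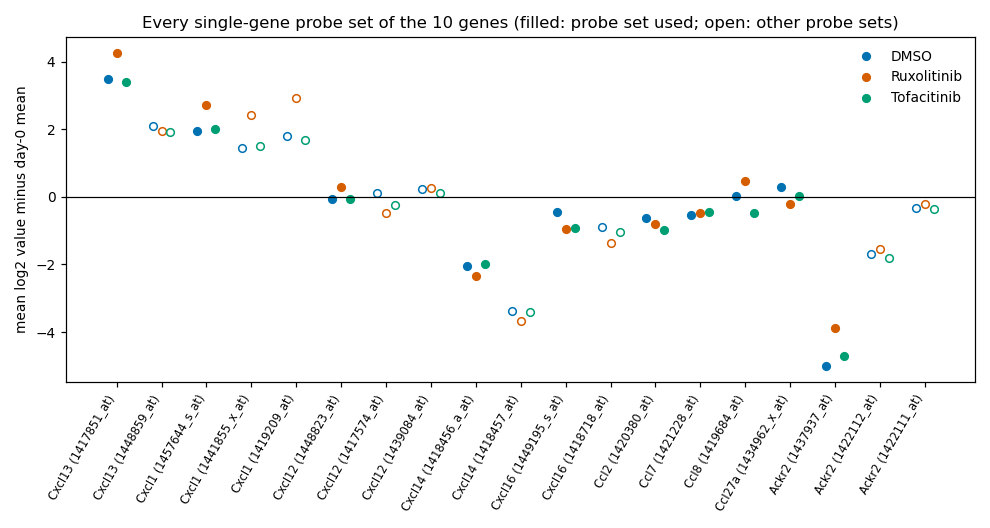
Mean log2 value at day 5 minus the day-0 mean (vertical axis) for each of the 19 single-gene probe sets, by arm. Filled points are the probe sets used and open points the others. The other Cxcl14 probe set fell further than the one used, and the other Cxcl13 probe set rose less.

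The other genes of the chemokine system came from lists of 29 further ligands, 19 signalling receptors and 4 atypical receptors. Of the ligands 26 have a probe set, 11 were tested and 5 (Cxcl3, Cxcl5, Cxcl15, Cxcl17 and Ccl3) were at background on all 16 arrays. With DMSO 4 of 11 rose and 4 fell, with ruxolitinib 3 rose and 4 fell, and with tofacitinib 4 rose and 5 fell, beside the shares of all genes given above. Xcl1, Ccl22, Cxcl9 and Cx3cl1 exceeded log2 4 only in day-0 arrays and Ccl11 only in day-5 arrays, so these 5 entered the test through the day in which they were high, and the counts are a description. Between the day-5 arms 0 of 11 passed in each of the 4 comparisons in the limma fit.

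Ccl11, the eotaxin gene, rose by 1.98 ± 0.31, 2.20 ± 0.31 and 1.80 ± 0.26 in the DMSO, ruxolitinib and tofacitinib arms, from day-0 levels of 1.53 to 3.08 to day-5 levels of 4.15 to 4.98. With 2 day-0 arrays at background, the Ccl11 sizes are not firm. Ccl9, a CCR1 ligand, rose by 1.69 ± 0.53, 1.91 ± 0.53 and 1.54 ± 0.45. Pf4, the platelet chemokine, rose by 1.98 ± 0.55, 2.19 ± 0.55 and 1.67 ± 0.46. Ccl25, the ligand of CCR9, rose with DMSO (1.22 ± 0.34) and tofacitinib (1.14 ± 0.29), and its difference of 0.46 with ruxolitinib did not pass (adjusted p = 0.313).

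Among the ligands that fell were Cxcl9 and Cxcl10, interferon-induced ligands of CXCR3. Cxcl9 fell by 2.20 ± 0.50, 1.52 ± 0.50 and 1.44 ± 0.42. Both DMSO arrays (2.01 and 2.32) and the lowest tofacitinib array (2.27) were at background, and the ruxolitinib arrays were close to it (2.67 and 2.86). The sizes of the Cxcl9 differences are thus not firm in any arm. Cxcl10 passed only with tofacitinib among the arms (-1.85 ± 0.53, adjusted p = 0.0104), at -1.52 (0.0542) with DMSO and -1.34 (0.110) with ruxolitinib. Xcl1, the lymphotactin gene of T and NK cells, went from 3.40 to 4.72 at day 0 to 1.45 to 1.87 at day 5, which is background, so that no size is given. Cx3cl1, the fractalkine gene, fell by 1.19 ± 0.19, 1.40 ± 0.19 and 1.08 ± 0.16, and Ccl22, a CCR4 ligand, by 1.45 ± 0.41, 1.11 ± 0.41 and 1.53 ± 0.34. Ccl22 lay between 1.92 and 2.88 at day 5, with 2 of these arrays at background, so that its sizes are not firm. T cell markers were lower on the same arrays: 5, 5 and 4 of 5 tested passed lower, beside 3493, 2592 and 3313 of all 12087 genes. The summed level of the 8 measured, headed by Thy1, went from 9.76 to 10.98 at day 0 to 8.45 to 9.74 at day 5. Cd4 was at background throughout. Thy1 is also on the fibroblast list and counts in both sums. The part of the T cell markers in these differences was not tested.

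**Figure D5:**
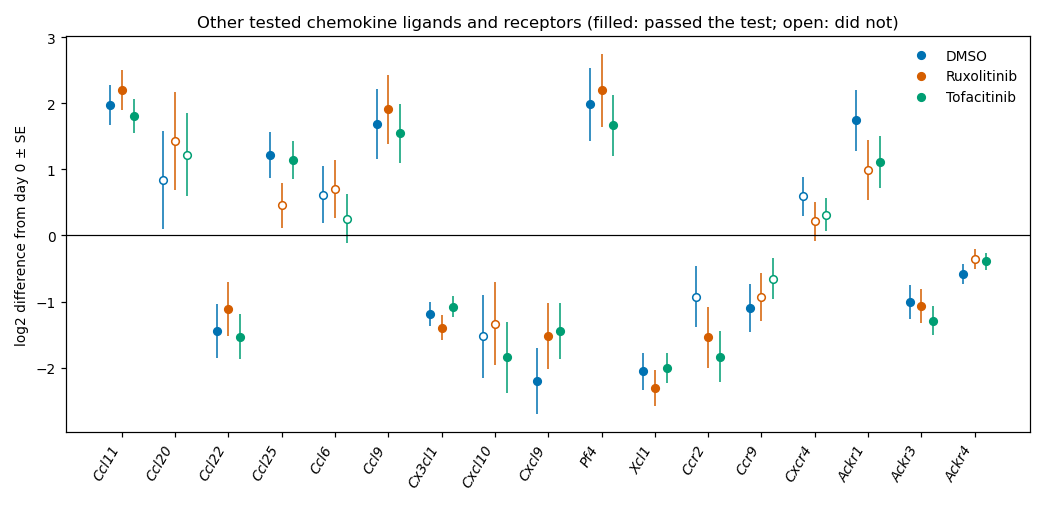
Log2 difference from day 0 with its standard error (vertical axis) for the 11 other ligands, 3 signalling receptors and 3 atypical receptors that were tested, by arm. Filled points passed at an adjusted p under 0.05. Ccl11, Ccl9 and Pf4 rose and Xcl1, Cxcl9, Cx3cl1, Ccl22 and Ackr3 fell in all 3 arms.

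Of the 19 signalling receptors 17 have a probe set, 3 were tested and 8 were at background on all 16 arrays. Those 8 include Cxcr5, Cxcr2, Ccr1 and Ccr8, receptors of the chemokines described here. Ccr10, the CCL27 receptor, lay between 2.14 and 2.63 and Cxcr6, the CXCL16 receptor, between 1.62 and 4.21, and neither was tested. Ccr2, the main receptor of CCL2, was 4.29 to 6.58 at day 0 and 3.31 to 4.84 at day 5, and fell with ruxolitinib (-1.54 ± 0.46, adjusted p = 0.019) and tofacitinib (-1.83 ± 0.39, 0.0017) while its DMSO difference of -0.93 did not pass (0.107). Whether the arms differ in Ccr2 was tested at day 5 and did not pass in any of the 4 comparisons. Cxcr4, the receptor of CXCL12, was 6.78 to 7.88 at day 0 and 7.04 to 8.09 at day 5 and did not pass. Ccr9 fell with DMSO (-1.10 ± 0.36, adjusted p = 0.0204), from levels of 2.46 to 4.29 to 2.32 and 2.45, at or next to background, so that its size is not firm. The Ccr9 differences of -0.93 with ruxolitinib and -0.65 with tofacitinib did not pass (0.0618 and 0.0892). Ccr9 exceeded log2 4 only in day-0 arrays.

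The other atypical receptors did not all follow Ackr2. Ackr3, which binds CXCL12, fell in all 3 arms by 1.01 ± 0.26, 1.07 ± 0.26 and 1.29 ± 0.22. Ackr4, which binds CCL19, CCL21 and CCL25, fell with DMSO (-0.59 ± 0.15) and tofacitinib (-0.39 ± 0.13), with -0.35 in ruxolitinib not passing (adjusted p = 0.0864). It was read from 1 of its 3 probe sets, whose suffix x marks probes that can match other sequences. Ackr1, the Duffy antigen receptor of venular endothelium and red cells, rose with DMSO (1.74 ± 0.46) and tofacitinib (1.11 ± 0.39), with 0.99 in ruxolitinib not passing (0.107), and exceeded log2 4 only in day-5 arrays. As 2 of its day-0 arrays were at background, the Ackr1 sizes are not firm. Blood endothelium markers were also higher, with 9, 9 and 10 of 10 passing and a summed level, headed by Tek, of 5.85 to 7.98 at day 0 and 8.80 to 9.81 at day 5, and their part in the Ackr1 difference was not tested. Among all 12087 genes 2685, 1512 and 2742 passed higher in the 3 arms. Gpr182 was not tested.

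Genes whose course over the 16 arrays was most like that of a member were found by the smallest root mean square log2 difference after each gene's day-0 mean was subtracted. For Ackr2 these were Gna14 (0.405) and Slc2a5 (0.536), against a median of 3.06 over all tested genes. For Cxcl14 they were Fcgbp (0.266) and Fut2 (0.268) against 1.42, for Cxcl13 Gabra3 (0.717) and Inmt (0.788) against 2.60, and for Cxcl1 Arc (0.528) and Phlda1 (0.559) against 1.61. For Cxcl16 they were Ankrd22 (0.274) and Ly96 (0.289) against 0.768, for Cxcl12 Sdc2 (0.186) and Sod1 (0.199) against 0.502, and for Ccl2 Zbtb33 (0.326) and Fam241a (0.33) against 0.778. For Ccl8 they were Syk (0.534) and Prr9 (0.554) against 0.818, and for Ccl27a Crebl2 (0.211) and Frs3 (0.219) against 0.531. This is a description over 16 arrays that share mice, and genes with a small range lie close to many others. The nearest genes lie below the median by the way they were picked.

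Some markers of fibroblasts, adipocytes and skeletal muscle also passed between the days, where 51.1%, 34.0% and 50.1% of all genes passed. Of 12 fibroblast markers 6, 7 and 7 passed higher and 1, 1 and 0 lower with DMSO, ruxolitinib and tofacitinib, the summed level, headed by Col3a1, being 11.56 to 13.41 at day 0 and 13.30 to 14.06 at day 5. Of 7 adipocyte markers 1, 1 and 3 passed higher, and of 14 muscle markers 8, 2 and 10, with 0 lower in either list. The summed adipocyte level, headed by Fabp4, was 12.13 to 14.45 and 14.55 to 14.83, and the summed muscle level, headed by Tnni2, 16.52 to 17.11 and 17.17 to 17.38. The Langerhans cell list, headed by Cd74, overlapped at 12.74 to 13.48 and 12.48 to 13.21. The part of the cell mixture in the differences of the 10 genes was not tested.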

How the data were processed

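Arrays were hybridized with amplified complementary DNA (NuGEN Ovation kit, biotin label) from flash-frozen whole skin extracted with a Qiagen micro kit, per the labels' protocols. The authors deposited log2 expression values, normalized with GCRMA per the submitters' processing notes (version and genome build not given in the sources used here). Of 45101 probe sets, 34958 have 1 gene symbol, 932 several, which name no gene, and 9211 none in the annotation table. By gene ID 34754 matched RefSeq, with 0 symbols changed. Probe sets above log2 4 in at least 2 arrays (20992) were kept, and each gene was read from its probe set of highest mean.

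All 16 arrays were fitted with limma 3.58.1 in R 4.3.3 with a mean per group, mouse as a random block (consensus correlation 0.0982), 12 residual degrees of freedom and Benjamini-Hochberg adjustment over 12087 genes. Fitted differences vary slightly from differences of means because of the block. The labels pair arrays by mouse. Deviations of arrays from their group means, correlated within mice, exceeded 0.1 in 2 of 7 pairs (-0.183 to 0.178). In 1 of 7 pairs the day-5 array was most like the day-0 array of its own mouse. The pairing thus rests on the labels. The method was tested on simulated data.

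The 10 genes, the gene lists and the tests were chosen with earlier results of these data known. Named are the 10 genes, other chemokine genes that passed in any comparison, the main receptors, markers that head their list or are at background throughout, and the 2 genes most like each member. Alternatives changed the filter, the probe set, the scaling, the arrays fitted and the block, and left out arrays. The number of arrays limits the precision.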

Additional observations from a re-analysis of the deposited data

Results flagged for a closer look

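In 2 of the 10 day-0 groups of 9 arrays examined, 1 per gene, the highest array stood apart from the rest, and chance flags about 1 in 20 such groups. Ccl7 was 4.10 in the day-0 array of mouse 7, where the next highest array was at 2.88. Ccl8 was 8.30 in the day-0 array of mouse 8, where the next highest was at 6.67.

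In another 2 cases the change within mice ran in opposite directions in 2 arms. Ccl8 was higher at day 5 in both ruxolitinib mice (mean 0.52) and lower in all 3 tofacitinib mice (mean -1.07), a difference of -1.59, in which mouse 8 and its high day-0 array take part. The limma fit with mouse as a fixed block gives that difference an adjusted p of 0.479, and without the fixed block the Ccl8 difference between the inhibitors was -1.01 (adjusted p = 0.902). Ccl27a was higher in both DMSO mice (mean 0.38) and lower in both ruxolitinib mice (mean -0.51), a difference of -0.89. The fixed block gives it an adjusted p of 0.304 in the limma fit, and without it the Ccl27a difference between ruxolitinib and DMSO was -0.55 (adjusted p = 0.398). Neither passed.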

How the results depend on the processing

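The count of members that passed was within 1.5 times its reported value in all 168 recomputations, and no single member reversed among those that passed. Of 1540 recomputed member differences, 5 gained and 5 lost the call, all in Cxcl13, Cxcl16 and Ccl2 and given beside those genes except the mean of the kept Cxcl16 probe sets with ruxolitinib (-1.13, adjusted p = 0.0282). With mouse as a fixed replicate block, which uses the pairing of biopsies, 4, 4 and 5 members passed in the DMSO, ruxolitinib and tofacitinib arms, and beside Cxcl13, Ccl2 and Cxcl16 it changed no other member's call. Without a block 4, 4 and 6 passed.

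Counts over all genes moved more. The fixed block called 3701 genes with DMSO and 1324 with ruxolitinib, instead of 6178 and 4104, and 0 in each of the 4 comparisons between day-5 arms, instead of 63, 20, 113 and 3. Fits on the groups compared alone called 3, 0, 0 and 0 there. For tofacitinib against DMSO no filter, a filter at log2 6 and the mean of probe sets called 11, 11 and 12. No filter called 71 for the mean of both inhibitors, and the mean of probe sets 110 for ruxolitinib against DMSO and 5 between the inhibitors. Leaving out 1 array gave 3714 (DMSO mouse 2) to 3869 (mouse 3) with DMSO and 1954 (ruxolitinib mouse 6) to 2247 (mouse 4) with ruxolitinib where it moved the count by over 1.5 times. In the same sense it gave 4 to 227 for ruxolitinib against DMSO, 0 to 119 for tofacitinib against DMSO, 0 to 385 for the mean of both and 1 to 7 between the inhibitors. The cause was not tested. These fits reused the correlation of the full fit, and a lone array was assumed to vary like the other groups. Leaving out day-0 arrays was added after seeing the data. Scaling the arrays again moved the median of all genes by at most 0.0967.

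Levels near background, as for Ccl2, Ccl7 and the weaker Ackr2 probe sets, give no firm size of a change. The same limit holds for Cxcl13 and Cxcl1 at day 0 and for the Ackr2 probe set used at day 5. With 2 or 3 arrays per arm the intervals are wide.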
